A study of Chlorocebus sabaeus with 18 samples.

Results

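Complex events are places where a gene's transcripts differ in a way that EventPointer, a program that compares paths through a gene's splicing graph, could not assign to a named class such as a cassette exon or a retained intron. All events with that class in the authors' deposited tables were taken: 1385 of 6311 events, or 21.9%. The class depends on the structure of the transcripts, so no measured change entered the rule. The class itself was chosen with earlier results of these data known. The measured quantity is Delta PSI, the change in the fraction of a gene's transcripts that follow one of the event's paths (percent spliced in). It is a fraction, with positive values read as more of that path in the first-named group. The tables do not state this direction.

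Splicing factors of the SR and SR-like families, to which TRA2A belongs, bind short motifs in exons and help the spliceosome to choose exons and splice sites. TRA2 proteins are best known for promoting the inclusion of alternative exons with purine-rich motifs. Expanded CGG repeats in the leader of FMR1 underlie the tremor and ataxia syndrome FXTAS, and RNA that carries the repeat collects RNA-binding proteins. A complex event joins several choices in 1 region, for example a first exon together with a skipped exon, so its sign cannot be read as the inclusion or skipping of a given exon from the tables.

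The cells were COS-7, an established African green monkey line grown from kidney. Their RNA was sequenced in 18 samples, 3 in each of 6 groups. Control cells are called CTL here, and CGG cells carried the FMR1 leader with 60 CGG units. TRA2A was overexpressed in GFP_TRA and knocked down in siTRA. The groups CGG_TRA and CGG_siTRA combined the repeat with overexpression or with knockdown. The labels name no group with an empty vector or a control siRNA, so in the comparisons with CTL the effect of transfection cannot be told apart from that of the treatment. Events were compared by the authors in 5 pairs of groups. Exon-bin counts cover 15 libraries and every group except CGG_TRA, with totals from 121142115 to 203957869 counts. Whether the 3 samples of a group are separate cultures is not stated, so the spread behind each p-value may be technical.

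The files give TRA2A no symbol, but 1 gene alone was at least 2-fold above CTL in GFP_TRA and at least 2-fold below it in both knockdown groups. Its normalised counts were 16912 to 17234 in CTL, 15675 to 17032 in CGG and 187106 to 221792 in GFP_TRA, with 3117 to 4916 in siTRA and 4020 to 4408 in CGG_siTRA, and it holds no event of any class. Bins used at under 5% of their gene's highest bin, per base, are called little used here. They held 2.10% to 2.24% of the counts inside complex events in CTL, 1.91% to 1.98% in CGG and 1.85% to 1.89% in GFP_TRA. In siTRA the shares were 2.21%, 2.53% and 1.95% in libraries a, b and c, and in CGG_siTRA 2.37%, 2.44% and 2.0%. Library c thus stood below a and b in both knockdown groups. The higher share in CTL and the lower one in library c were not confined to complex events. Over all tested bins every CTL library (3.504% or more) lay above CGG (3.30% to 3.36%) and GFP_TRA (3.23% to 3.38%). There GFP_TRA overlapped CGG, while inside complex events it lay below CGG. Library c was again below a and b over all tested bins, at 3.35% in siTRA and 3.21% in CGG_siTRA. The titles of 2 CGG_siTRA samples name a round, and not the same one. Rounds cannot be matched to the lettered libraries, so the part of a round in this spread was not tested.

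**Figure D1:**
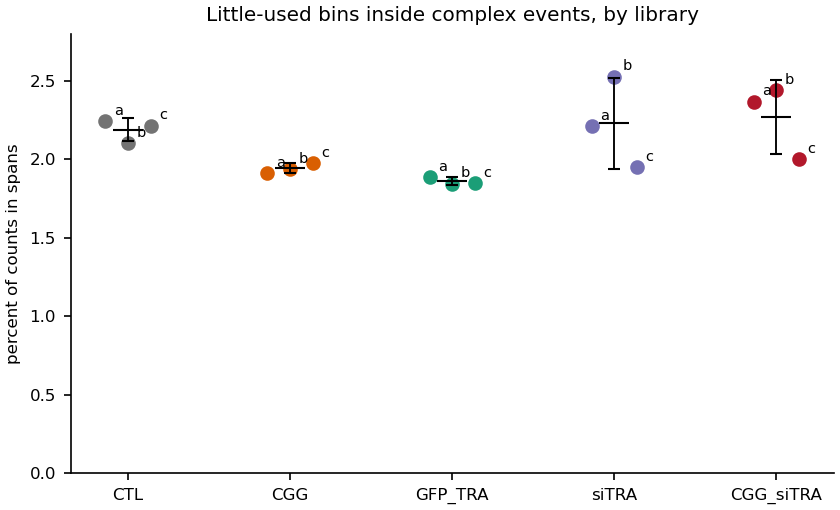
Share of the normalised counts inside complex events that fell in little-used bins (vertical axis, percent) in each library (points a, b, c), with the group mean and SD (n = 3). GFP_TRA lies lowest at 1.85% to 1.89%, and the knockdown groups spread most, with library c lowest in each.

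The 1385 events have 1096 distinct spans on the human assembly GRCh38, to which the monkey reads had been aligned. Their median span was 3941 bases, with quartiles of 1246 and 10110, beside 5084.5 for cassette exons. A gene was named for 1323 events, in 684 genes, of which 408 held 1 complex event and 37 held 5 or more, up to 33. Events are therefore not independent: 560 of them share their span with another complex event. In 563 of the 684 genes there was also an event of another class. The files pair no gene symbols with their identifiers, so events are named by number and position.

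Across the 5 comparisons, 48 complex events (3.47%) in 35 genes had an adjusted p under 0.05 (the authors' deposited p, Benjamini-Hochberg adjusted over all 6311 events), beside 190 of all events (3.01%). By comparison, 21 complex events (1.52%) passed in CGG vs CTL, where 1.33% of all events did. In GFP_TRA vs CTL 12 passed (0.866%), beside 1.22% of all events. In CGG_TRA vs CGG 10 passed (0.722%), beside 0.412%, and in CGG_TRA vs CGG_siTRA 16 passed (1.16%), beside 0.713%. None passed in CGG_siTRA vs siTRA, where 0.0475% of all events did. The complex class was thus called at rates from below to above the background. Changes were small in the authors' deposited tables: the median absolute Delta PSI of complex events lay between 0.00551 and 0.00696 in the 5 comparisons, beside 0.00856 to 0.00957 over all events, and 237 complex events were listed at 0 in every comparison.

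**Figure D2:**
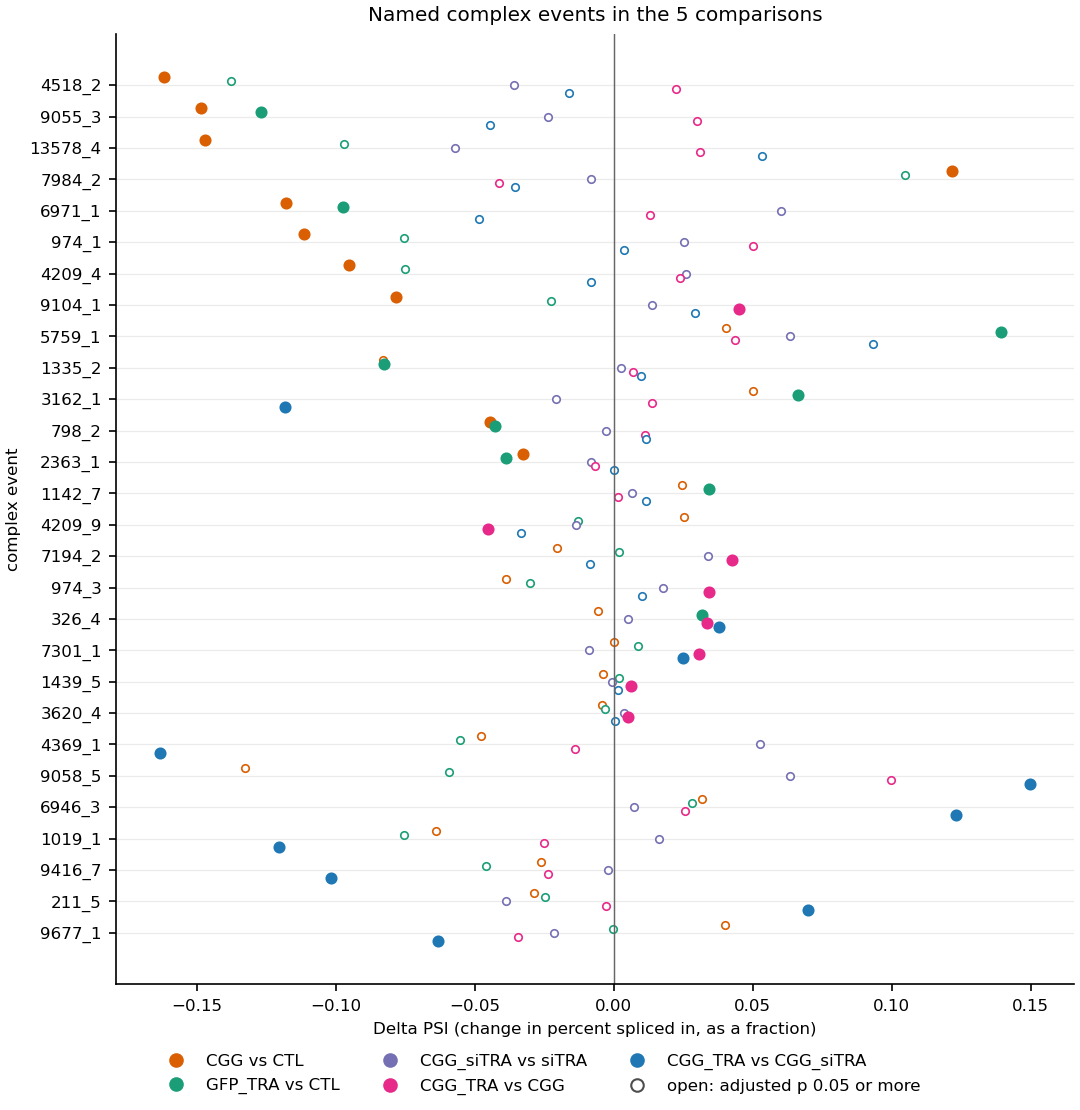
Delta PSI (horizontal axis, as a fraction) of the named complex events that passed in at least 1 comparison (rows, by event number). Colours mark the 5 comparisons, and filled points have an adjusted p under 0.05. Filled points reach from -0.163 to 0.150, and event 3162_1 has filled points on both sides of 0.

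The comparison of CGG with CTL asks what the repeat RNA changes. Of its 21 called events, 19 had a Delta PSI below 0 and 2 above, in 17 genes. For 6 of them the change reached 0.1, while 23 of the 1385 complex events (1.66%) and 137 of all 6311 events (2.17%) had that size whether called or not. The authors' deposited table put event 4518_2 (chromosome 6, 147334222 to 147353323) at -0.162 (adjusted p = 0.00536) and event 9055_3 (chromosome 14, 103492034 to 103502882) at -0.149 (adjusted p = 2.06e-05). In the same deposited table event 13578_4 (chromosome X, 41553915 to 41557032) stood at -0.147, event 6971_1 (chromosome 10, 56358687 to 56358909) at -0.118 and event 974_1 (chromosome 1, 63441103 to 63453918) at -0.112. Event 7984_2 (chromosome 12, 32737942 to 32740064) was the one of these that rose, by 0.122 in the authors' deposited table (adjusted p = 0.0292). The smallest adjusted p belonged to event 9104_1 (chromosome 14, 22927614 to 22928497), at 9.94e-10 for a deposited Delta PSI of -0.0784 in the authors' deposited table.

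Exon-bin counts give a view of the same regions by library, as the count of a bin per 1000 counts of its gene. One read can be counted in more than 1 bin. Unless said otherwise, the bin shown is that of smallest p in its span. Where a span held more than 1 tested bin, groups that do not overlap partly follow from this choice. The share of all bins whose groups do not overlap is not given here. The bin of event 9055_3 with the smallest p, 27 bases long (chromosome 14, 103498502 to 103498528), had 15, 14.5 and 16.8 in CTL and 11.5, 10.7 and 11.2 in CGG. The groups did not overlap. The change in bin use, log2 of the bin relative to the rest of its gene, was -0.47 (edgeR diffSpliceDGE, adjusted p = 0.0625 over 265486 bins), short of the threshold. It passed with only the libraries compared (adjusted p = 5.34e-05). In event 6971_1 a bin of 104 bases (chromosome 10, 56358805 to 56358908) had 71.8 ± 0.80 in CTL (SD, n = 3) and 60.8 ± 1.0 in CGG (SD, n = 3). The groups did not overlap here either, at a log2 change of -0.24 that did not pass (diffSpliceDGE adjusted p = 1; 0.0215 with only the libraries compared). In event 13578_4 the 36-base bin (chromosome X, 41555600 to 41555635) had 23.5 ± 0.68 in CTL and 19.7 ± 0.85 in CGG (SD, n = 3 each), with a log2 change of -0.25 (diffSpliceDGE adjusted p = 1).

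The 48-base bin of event 4518_2 (chromosome 6, 147339337 to 147339384) had 5.41, 5.34 and 6.25 per 1000 in CTL and 3.39, 2.99 and 3.73 in CGG. Its log2 change was -0.75 (diffSpliceDGE adjusted p = 0.216; 0.0245 with only the libraries compared and 0.00377 with limma). In all 4 of these events the deposited Delta PSI and the bin had the same sign. Event 7984_2 had opposite signs: its 175-base bin (chromosome 12, 32737977 to 32738151) had 0.335, 0.603 and 0.416 per 1000 in CTL and 0.182, 0.221 and 0.268 in CGG, a log2 change of -1.0 that did not pass (diffSpliceDGE adjusted p = 0.509; 0.0353 with limma). For called complex events with a tested bin, the sign of Delta PSI in the authors' deposited tables was that of the most changed bin in 16 of 20 for CGG vs CTL and in 8 of 12 for GFP_TRA vs CTL. For cassette exons these counts were 32 of 34 and 30 of 36.

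Event 4209_4 (chromosome 5, 179617911 to 179620892) was the named event of this comparison in which bins also passed. Its Delta PSI was -0.0955 in the authors' deposited table (adjusted p = 0.00483), and 7 of its 33 tested bins passed, where 0.25% of all bins did. The bin with the smallest p, of 240 bases (179619469 to 179619708), had 2.0, 1.59 and 1.89 per 1000 in CTL and 1.06, 0.785 and 1.04 in CGG. Its use fell by 0.92 on the log2 scale (diffSpliceDGE adjusted p = 0.000206; 0.0589 without CGG library b and 0.0866 with limma). In GFP_TRA the bin had 0.874, 0.929 and 0.812, a log2 change of -1.07 from CTL (diffSpliceDGE adjusted p = 2.08e-06). Both knockdown groups were split, with 1.84, 2.37 and 0.893 in siTRA and 2.52, 2.06 and 0.877 in CGG_siTRA, so that library c of each lay with CGG and GFP_TRA. The 7 bins that fell are used little, with means of 1.13 to 3.03 per 1000 in CTL, and lie between exon bins of up to 25.5 per 1000, none of which passed. Event 4209_12, which overlaps it, was also called, at -0.0354 in the authors' deposited table.

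The comparison of GFP_TRA with CTL asks what raised TRA2A changes without the repeat. Its 12 called events lay in 12 genes, 4 above and 8 below 0, and 2 reached 0.1. Whether called or not, 27 complex events (1.95%) reached that size, beside 2.25% of all events. Event 5759_1 had the largest change among the 12, 0.139 in the authors' deposited table (adjusted p = 0.00516). Event 9055_3 was at -0.127, 6971_1 at -0.0975 and 798_2 (chromosome 1, 21729832 to 21747067) at -0.0429 in the authors' deposited table, beside -0.149, -0.118 and -0.0447 in CGG vs CTL, a comparison that shares the CTL libraries. Event 1335_2 (chromosome 1, 231367636 to 231373980) stood at -0.0828 and event 2363_1 (chromosome 3, 23959815 to 23964977) at -0.0388 in the authors' deposited table.

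Event 1142_7 (chromosome 1, 154170711 to 154172908) had a small Delta PSI, 0.0344 in the authors' deposited table (adjusted p = 0.0285), but 5 of its 12 tested bins were lower in GFP_TRA, where 0.368% of all bins were called. The 406-base bin (154171007 to 154171412) had 0.779, 0.618 and 0.764 per 1000 in CTL and 0.308, 0.377 and 0.242 in GFP_TRA. The groups were well apart, and the log2 change was -1.20 (diffSpliceDGE adjusted p = 0.000152). The bin was also lower than in siTRA, which had 0.756, 1.28 and 0.476 (log2 -1.38, diffSpliceDGE adjusted p = 3.24e-06; -1.68 and 1.96e-08 without siTRA library c). All 5 called bins of this event are small shares of the gene, at most 1.39 per 1000 in any CTL library, while the 3 bins with means of 22.1 to 30.4 per 1000 in CTL did not pass. The level of its gene rose in GFP_TRA by 0.21 ± 0.06 on the log2 scale (SE, edgeR adjusted p = 0.0128).

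**Figure D3:**
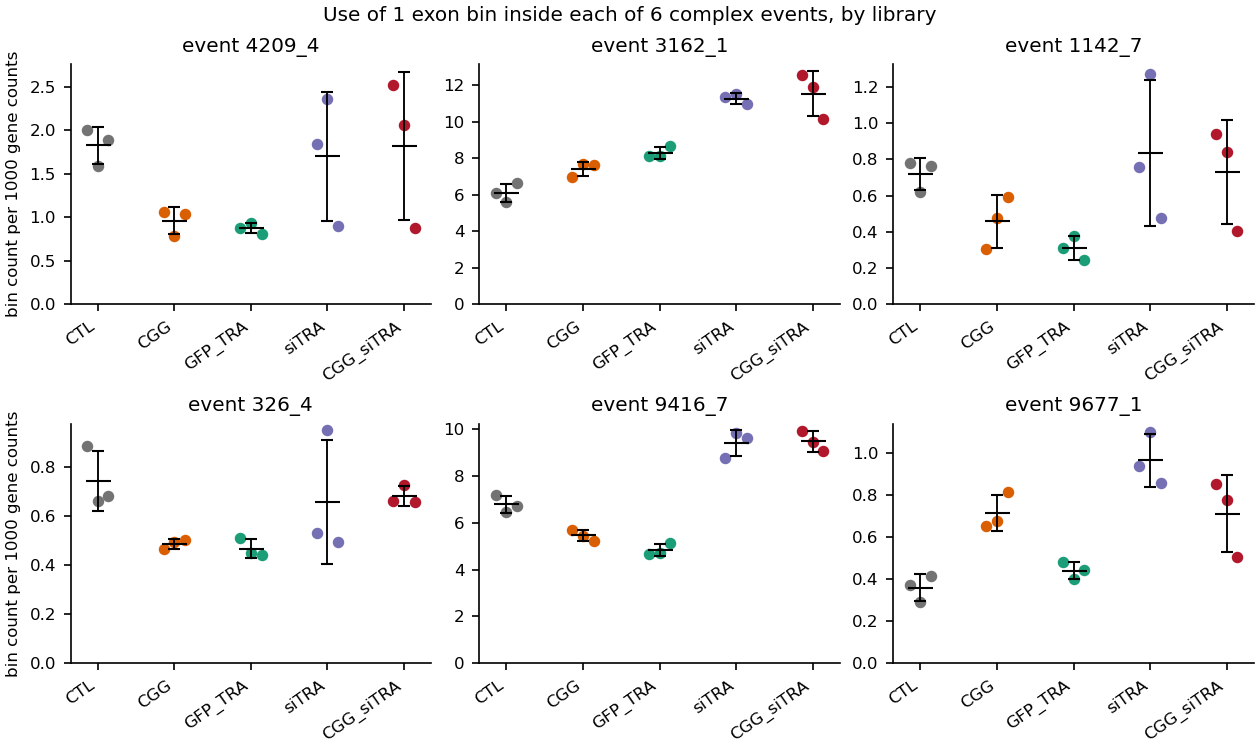
Count of 1 exon bin per 1000 counts of its gene (vertical axis) in the 15 libraries (points), with group mean and SD (n = 3), for 6 complex events. Event 9416_7 is lowest in GFP_TRA and highest in both knockdowns, 3162_1 is lowest in CTL, and 9677_1 is lowest in CTL and highest in siTRA.

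The comparison of CGG_siTRA with siTRA asks what the repeat changes when TRA2A is low. No complex event passed after adjustment, with a smallest adjusted p of 0.106. At an unadjusted p under 0.05 there were 71 complex events (5.13%), beside 6.31% of all events. The 2 largest changes among the 5 events of smallest p were 0.231 for event 8368_6 (chromosome 12, 48098124 to 48106028) and 0.208 for event 7595_4 (chromosome 11, 13421838 to 13463092) in the authors' deposited table, with adjusted p of 0.172 and 0.106. In event 7595_4 a 17-base bin (chromosome 11, 13445165 to 13445181) had 9.35, 6.31 and 11.9 per 1000 in siTRA and 12.5, 11.7 and 12.5 in CGG_siTRA. The groups overlapped, because siTRA library c lay among the CGG_siTRA values (log2 0.41, diffSpliceDGE adjusted p = 0.77; 0.65 and 0.147 without that library). Bin counts gave 2 complex events with a changed bin, of 1243 with a tested bin (0.161%, beside 0.138% of all events).

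These are events 1439_1 and 1439_5, on the same span (chromosome 2, 27771799 to 27774424), which share 1 changed bin where 0.0516% of all bins were called. The bin of 19 bases (27772674 to 27772692) was named after its values were seen. It had 71.8, 75.4 and 70.6 per 1000 in CTL, 63.0, 61.5 and 62.0 in CGG and 67.3, 67.6 and 61.2 in GFP_TRA. In siTRA it had 57.8, 40.2 and 59.7, and in CGG_siTRA 64.3, 79.7 and 76.9, so the knockdown with the repeat lay above the knockdown without it in every library. The rise was 0.51 on the log2 scale (diffSpliceDGE adjusted p = 0.00948). It did not pass without siTRA library b, the lowest (log2 0.33, diffSpliceDGE adjusted p = 0.614), without CGG_siTRA library b or c (adjusted p = 0.448 and 0.183), with only the libraries compared (1) or with limma (0.503). Use in siTRA was below that in CTL (log2 -0.49, diffSpliceDGE adjusted p = 0.00178; 0.135 without siTRA library b, 0.0530 without CTL library b and 0.514 with limma). The bin lies in a pair of overlapping genes.

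The remaining comparisons contrast overexpression in the presence of the repeat with the repeat alone and with the repeat plus knockdown. In CGG_TRA vs CGG the 10 called events were small: 7 above 0, 2 below, 1 listed at 0 (event 1439_1), and none at 0.1, which 10 complex events (0.722%) and 0.982% of all events reached whether called or not. Event 1439_1 passed although listed at 0 (authors' deposited p, adjusted p = 0.0378), so the deposited p is not a test of Delta PSI alone. Event 9104_1 was at 0.0449 in the authors' deposited table (adjusted p = 0.00275), opposite in sign to its -0.0784 in CGG vs CTL, a comparison that shares the CGG libraries. Its bins differed little: the 46-base bin (chromosome 14, 22927615 to 22927660) had 22.2 per 1000 in each CTL library, 20.9, 20.6 and 20.1 in CGG, and 21.6, 21.0 and 20.2 in GFP_TRA (log2 -0.11 for CGG and -0.08 for GFP_TRA against CTL, diffSpliceDGE adjusted p = 1 for both). Events 4209_9 (chromosome 5, 179616218 to 179617051) and 4209_2, on the same span, were lower with raised TRA2A, at -0.0453 and -0.0357 in the authors' deposited table. Events 7194_2 (chromosome 11, 18399548 to 18403738) at 0.0426 and 974_3 (chromosome 1, 63454968 to 63508528) at 0.0342 were higher in the authors' deposited table.

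In CGG_TRA vs CGG_siTRA, the pair with the greatest distance in TRA2A by design, 9 called events were above 0, 6 below and 1 at 0. For 7 of the 16 the change reached 0.1, which 26 complex events (1.88%) and 1.95% of all events did whether called or not. The largest were event 4369_1 (chromosome 6, 41079164 to 41084046) at -0.163, 9058_5 (chromosome 14, 103687211 to 103700655) at 0.150 and 6946_3 (chromosome 10, 34331344 to 34337275) at 0.123 in the authors' deposited table. Event 1019_1 (chromosome 1, 92636336 to 92665939) was at -0.121 and event 211_5 (chromosome 1, 42693523 to 42696642) at 0.0698 in the authors' deposited table. CGG_TRA has no counts here, so bins are compared between GFP_TRA and siTRA, a contrast added after the data were seen. In event 4369_1 the 87-base bin (chromosome 6, 41080811 to 41080897) had 25.7, 25.9 and 22.7 per 1000 in GFP_TRA and 31.1, 32.0 and 30.3 in siTRA. The groups did not overlap, and the log2 change of -0.33 did not pass (diffSpliceDGE adjusted p = 0.726).

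The smallest adjusted p of all complex events, 4.16e-15, belonged to event 9416_6 (chromosome 15, 63060939 to 63061713), at 0.0567 in the authors' deposited table. The neighbouring event 9416_7 of the same gene (63061273 to 63062215) was at -0.102 in the authors' deposited table (adjusted p = 6.12e-08). Inside the latter a 76-base bin (63061713 to 63061788) was lower where TRA2A was raised and higher where it was knocked down. It had 7.19, 6.45 and 6.72 per 1000 in CTL, 4.68, 4.72 and 5.14 in GFP_TRA, and 8.78, 9.83 and 9.63 in siTRA. No group overlapped another. Its use was lower in GFP_TRA than in CTL (log2 -0.48, diffSpliceDGE adjusted p = 0.018) and higher in siTRA than in CTL (log2 0.47, diffSpliceDGE adjusted p = 0.0178). The contrast of GFP_TRA with siTRA was largest, at -0.96 (diffSpliceDGE adjusted p = 4.88e-11; 0.0742 with limma). The call in GFP_TRA was lost without any 1 library other than GFP_TRA library c (diffSpliceDGE adjusted p from 0.0549 to 0.256) and with limma (adjusted p = 1). That in siTRA was lost without any 1 CTL library (0.0537 to 0.246), with limma (0.782) and with only the libraries compared (0.122).

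With the repeat present the same bin had 5.71, 5.44 and 5.22 per 1000 in CGG and 9.94, 9.46 and 9.06 in CGG_siTRA, a log2 rise of 0.80 (diffSpliceDGE adjusted p = 8.2e-07; 0.561 with limma). CGG lay below CTL without passing (log2 -0.31, diffSpliceDGE adjusted p = 0.662; 0.00162 with only the libraries compared). Background for the 2 added contrasts is 0.508% of all bins called in siTRA vs CTL and 0.135% in CGG_siTRA vs CGG. Its gene was lower in CGG than in CTL by a log2 of -0.45 ± 0.05 (SE, edgeR adjusted p = 4.84e-06) and did not pass in GFP_TRA vs CTL (0.05 ± 0.05). The other 4 bins of the event, each under 1 per 1000, were all lower in GFP_TRA than in CTL at an adjusted p under 0.05 (log2 -1.21 to -0.78), and none passed in siTRA vs CTL. Events 9416_8 and 9416_11 of this gene, both on 63062604 to 63071090, were called in CGG vs CTL with a Delta PSI of only -0.000766 and -0.00190 in the authors' deposited table.

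Event 9677_1 (chromosome 15, 66501105 to 66501375), at -0.0632 in the authors' deposited table for CGG_TRA vs CGG_siTRA (adjusted p = 0.0288), holds bins that were higher both with the repeat and with the knockdown. Its 88-base bin (66501106 to 66501193) had 0.373, 0.290 and 0.415 per 1000 in CTL, 0.655, 0.677 and 0.815 in CGG, and 0.939, 1.10 and 0.857 in siTRA. These 3 groups did not overlap. The rise was 1.01 in CGG and 1.42 in siTRA on the log2 scale (diffSpliceDGE adjusted p = 1.95e-06 and 1.83e-14). GFP_TRA, at 0.481, 0.399 and 0.443, did not differ from CTL past the threshold (log2 0.30, diffSpliceDGE adjusted p = 1). CGG_siTRA had 0.855, 0.777 and 0.504, a log2 difference of -0.03 from CGG (diffSpliceDGE adjusted p = 1), or 0.18 without CGG_siTRA library c (adjusted p = 1). The bin lies in a group of overlapping genes, whose reads the counts cannot divide.

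A pair of events was called in comparisons that share no library. Event 326_4 (chromosome 1, 92832117 to 92833545) was called in all 3 comparisons with an overexpressing group, of which the latter 2 below share the CGG_TRA libraries. Its Delta PSI was 0.0319 in GFP_TRA vs CTL (adjusted p = 0.000254), 0.0336 in CGG_TRA vs CGG (adjusted p = 0.0454) and 0.0380 in CGG_TRA vs CGG_siTRA (adjusted p = 0.000139) in the authors' deposited tables. In CGG vs CTL and CGG_siTRA vs siTRA, where overexpression was not varied, the authors' deposited tables gave -0.00580 and 0.00518. Its 627-base bin (92832762 to 92833388) had 0.883, 0.661 and 0.679 per 1000 in CTL and 0.509, 0.45 and 0.441 in GFP_TRA (log2 -0.66, diffSpliceDGE adjusted p = 0.0341). That call was lost when any 1 of the 6 libraries was left out (adjusted p from 0.0565 to 0.811), and CGG was as low, at 0.464, 0.494 and 0.500. This bin, too, lies in a group of overlapping genes.

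Event 3162_1 (chromosome 4, 38049898 to 38054199) was called with opposite signs in comparisons without a shared library. It was at 0.0663 in GFP_TRA vs CTL (adjusted p = 0.0135) and at -0.118 in CGG_TRA vs CGG_siTRA (adjusted p = 0.00113) in the authors' deposited tables. Its 120-base bin (38053106 to 38053225) had 6.08, 5.59 and 6.62 per 1000 in CTL, 6.96, 7.68 and 7.61 in CGG, 8.10, 8.10 and 8.67 in GFP_TRA, 11.3, 11.5 and 11 in siTRA, and 12.6, 11.9 and 10.2 in CGG_siTRA. CTL was thus lowest, GFP_TRA was higher and the knockdowns were highest. The rise in siTRA over CTL passed (log2 0.88, diffSpliceDGE adjusted p = 8.41e-08), as did that in CGG_siTRA over CGG (log2 0.64, diffSpliceDGE adjusted p = 0.00365; 0.0529 to 0.124 without CGG library a, CGG_siTRA library a or CGG_siTRA library b). The rise in GFP_TRA did not (log2 0.44, diffSpliceDGE adjusted p = 0.144; 0.0173 with only the libraries compared). Nor did the difference of GFP_TRA from siTRA (log2 -0.44, diffSpliceDGE adjusted p = 0.112; 0.0305 with limma). The other tested bin of the event, of 162 bases (38051899 to 38052060) and named after its values were seen, was also higher in siTRA than in CTL (log2 0.64, diffSpliceDGE adjusted p = 0.00552).

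Over all 1385 complex events, Delta PSI in GFP_TRA vs CTL and in CGG_TRA vs CGG_siTRA had a Pearson correlation of 0.226 and a Spearman correlation of 0.217, from the authors' deposited tables. The sign was the same for 668 of the 1148 events not at 0 (58.2%). Other events gave 0.211 and 0.164, and 55.6%. Events of 1 gene or span are not independent points. Against CGG_TRA vs CGG the correlation of GFP_TRA vs CTL was -0.043 (Pearson) and 0.066 (Spearman), with 51.7% of the same sign, while other events gave 0.098 on both measures and 53.6%. The effect of the repeat without knockdown (CGG vs CTL) and with it (CGG_siTRA vs siTRA) had a Pearson correlation of -0.015 and a Spearman correlation of 0.015, with 48.7% of the same sign. Other events gave -0.039 and -0.044, and 48.0%.

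**Figure D4:**
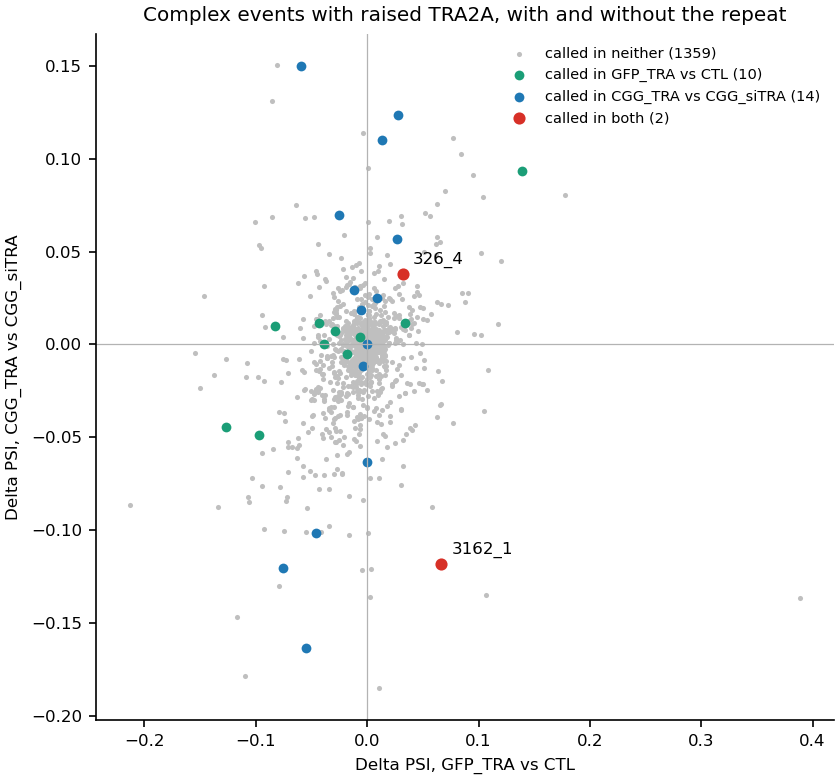
Delta PSI of the 1385 complex events in GFP_TRA vs CTL (horizontal axis) and in CGG_TRA vs CGG_siTRA (vertical axis), 2 comparisons that share no library. Colours mark events with an adjusted p under 0.05 in either or both. The 2 events called in both are labelled: 326_4 is above 0 in each, and 3162_1 is above 0 in one and below in the other.

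Bins inside complex events were tested whatever the deposited p of the event. The counts come from the same groups of samples, so the 2 measures are not independent. In CGG vs CTL 60 of 1243 events with a tested bin (4.83%) held a changed bin, beside 2.51% of all events. Leaving out 1 library gave 25 to 46 events there, and limma gave 190. In GFP_TRA vs CTL 64 did (5.15%), beside 3.2%, with 30 to 50 when 1 library was left out and 208 with limma. In GFP_TRA vs siTRA 74 did (5.95%), beside 3.41%, and limma gave 230. The complex events with a changed bin lay in 35, 37 and 37 genes in these comparisons, and events on 1 span share its bins. The rates over all events include the complex events. A complex event had a median of 4 tested bins and an event of another class 2. Counted by bin, 1.58% of the bins inside complex events were called in CGG vs CTL, beside 0.735% of the bins inside events of any class. These shares were 2.01% and 1.17% in GFP_TRA vs CTL and 2.33% and 1.30% in GFP_TRA vs siTRA. In CGG_siTRA vs siTRA they were 0.0229% and 0.0695%. For siTRA vs CTL 74 of 4369 bins inside complex events were called, beside 1.49% inside events of any class. For CGG_siTRA vs CGG 41 of 4369 were, beside 0.621%. Of the 4369 bins inside complex events, 69 changed in CGG vs CTL (22 higher, 47 lower), where 0.103% of all bins were lower. In GFP_TRA vs CTL 88 changed (9 higher, 79 lower), where 0.183% of all bins were lower. In GFP_TRA vs siTRA 102 changed (3 higher, 99 lower), where 0.396% of all bins were called and 0.293% were lower. In siTRA vs CTL 52 were higher and 22 lower, where 0.322% of all bins were higher; without siTRA library c these were 76 and 24. In CGG_siTRA vs CGG all 41 that passed were higher, as were 0.101% of all bins, and without CGG_siTRA library c 87 passed, all higher. The 102 of GFP_TRA vs siTRA became 192 without siTRA library c (14 higher, 178 lower).

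Most of the changed bins were little used. They made up 57 of 69 in CGG vs CTL, 76 of 88 in GFP_TRA vs CTL and 85 of 102 in GFP_TRA vs siTRA, while 37.9% of the tested bins inside complex events and 15.6% of all tested bins were little used. Over all changed bins the counts were 381 of 665, 596 of 978 and 699 of 1052. The share of counts in such bins differs between libraries, as given above, and its part in these counts was not tested. Leaving out siTRA library c, low in that share, moved the 74 events of GFP_TRA vs siTRA to 141, while leaving out GFP_TRA library b or siTRA library b gave 33 or 43. The 2 events of CGG_siTRA vs siTRA became 13 without siTRA library c, 0 without CGG_siTRA library c, and between 0 and 16 over all 6 libraries. Few events passed by both measures: a changed bin was found in 3 of 20 complex events called in CGG vs CTL (4209_4, 4209_12 and 12700_2) and in 2 of 12 called in GFP_TRA vs CTL (1142_7 and 326_4). In 1142_7 and 326_4 the signs were opposite: Delta PSI was above 0 and the bin of smallest p was lower in GFP_TRA. Event 12700_2 (chromosome 20, 31722348 to 31722618), named after its values were seen, had a Delta PSI of 0.0535 in the authors' deposited table for CGG vs CTL (adjusted p = 0.0186).

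The genes that hold complex events also differed in level. They were not matched to all genes by count, and the part of count level in the rates below was not tested. Of 680 tested, 219 (32.2%) passed in CGG vs CTL (114 higher, 105 lower; edgeR), where 24.2% of all genes did (1779 of 3622 higher), and 138 and 139 passed without CGG library c or CTL library c. In GFP_TRA vs CTL 287 (42.2%) passed, beside 28.9% of all genes. Of these 210 were higher and 77 lower, while over all genes 2172 of the 4323 that passed were higher. In GFP_TRA vs siTRA 262 (38.5%) passed, beside 31.6%, with 192 higher and 70 lower (170 passed without GFP_TRA library b). Over all genes 2522 of 4724 were higher there. None passed in CGG_siTRA vs siTRA with edgeR, where 0.0134% of all genes did, although 140 had an unadjusted p under 0.05, DESeq2 called 29, and edgeR called 51 without CGG_siTRA library a. Changes of 2-fold or more were rare, in 5 of these genes in CGG vs CTL, 3 in GFP_TRA vs CTL and 2 in GFP_TRA vs siTRA. Of the genes with an event called in CGG vs CTL, 7 of 17 changed in level (1 higher, 6 lower), and of those with an event called in GFP_TRA vs CTL 2 of 12 did, both higher.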

How the data were processed

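The members and the comparisons were chosen with earlier results of these data known. RNA was depleted of ribosomal RNA (TruSeq) per the labels' protocols. The submitters' processing notes name cutadapt 1.14, STAR 2.5.2 and the human build GRCh38.p10, so reads of sequences that differ between monkey and human can be lost.

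The authors deposited EventPointer tables with a p-value, a z score and Delta PSI per event. Their direction is not stated. It was read as first group minus second. The z score and Delta PSI were opposite in sign for all 21 complex events called in CGG vs CTL, and over all complex events not at 0 for 1022 (126 the same) there and for 904 (244 the same) in CGG_TRA vs CGG_siTRA. The authors also deposited raw counts per exon bin with log2 fold changes (DEXSeq tables), and a normalised signal per bin, scaled by 1 factor per library. Dividing by it gave whole reads within 0.1 for 100% of values, equal to the deposited counts. Columns match groups but no replicate numbers, so libraries are lettered.

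Bin use was tested with edgeR 4.0.16 (diffSpliceDGE, TMM, R 4.3.3) over bins that reached 10 normalised counts in 3 libraries, in genes with at least 2 such bins, and gene level with edgeR's quasi-likelihood test, from a fit of all 15 libraries, after tests on simulated data. A bin counted for an event when wholly inside its span. Calls need a Benjamini-Hochberg adjusted p under 0.05. Events named are the 8 largest changes per comparison among those called, 1 per gene, or the 5 of smallest p where fewer than 5 passed, plus those called in comparisons without a shared library, each with its bin of smallest p. The contrasts GFP_TRA vs siTRA, siTRA vs CTL and CGG_siTRA vs CGG were added after the data were seen. So was the interaction test of the change in CGG vs CTL minus that in CGG_siTRA vs siTRA. Alternatives were limma 3.58.1 (pseudocount of 1), DESeq2 1.42.0, other scaling and filters, the libraries compared alone, and each library left out. Gene lists and cell markers could not be matched, since identifiers carry no symbols. CGG_TRA counts were not analysed here.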

Additional observations from a re-analysis of the deposited data

Results flagged for a closer look

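The values here are the log2 change in bin use from the repeat without the knockdown (CGG vs CTL) minus that with the knockdown (CGG_siTRA vs siTRA). Each bin drew attention because this difference passed its own interaction test (edgeR diffSpliceDGE, adjusted over all bins), which was added after the data were seen. The share of all bins that passed this test is not given here. The labels name no empty vector, so CGG vs CTL also carries any effect of transfection. A repeat effect that differs with the knockdown therefore cannot be told apart from an effect of transfection.

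In event 9677_1, 3 bins passed (chromosome 15). They adjoin each other, and 1 read can be counted in more than 1 bin, so they are not independent. For 66501106 to 66501193 the change was 1.01 without and -0.45 with the knockdown, a difference of 1.45 (adjusted p = 9.39e-07). For 66501194 to 66501249 it was 0.77 and -0.49, a difference of 1.27 (adjusted p = 2.03e-05), and for 66501250 to 66501318 it was 0.77 and -0.39, a difference of 1.16 (adjusted p = 0.00063). All 3 passed with any 1 of the 12 libraries left out, at differences of 1.24 to 1.61, 1.08 to 1.44 and 0.94 to 1.36 in the same order. With limma the first passed (adjusted p = 0.0101) and the other 2 did not (0.0608 and 0.129).

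In event 1439_5 (chromosome 2, 27772674 to 27772692) the change was -0.23 without and 0.51 with the knockdown, a difference of -0.73 (diffSpliceDGE adjusted p = 0.00206). It passed with any 1 library left out (differences from -0.84 to -0.55) and did not pass with limma (adjusted p = 0.365).

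In event 9416_7 (chromosome 15, 63061274 to 63061712) the change was -0.78 without and 0.41 with the knockdown, a difference of -1.19 (diffSpliceDGE adjusted p = 0.00851). It did not pass without 6 of the 12 libraries, among them siTRA library c (-0.90, adjusted p = 0.160), and it was -1.52 without CGG_siTRA library c (adjusted p = 4.76e-05). In event 4209_4 (chromosome 5, 179619469 to 179619708) it was -0.92 and 0.12, a difference of -1.04 (diffSpliceDGE adjusted p = 0.0197). That did not pass without 8 of the 12 libraries, among them siTRA library c (-0.71, adjusted p = 0.302), and it was -1.37 without CGG_siTRA library c (adjusted p = 4.48e-06). Neither passed with limma (adjusted p = 0.0997 and 0.586). In both, library c of the knockdown groups differs from a and b in little-used bins, as reported above, and its part was not tested.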

How the results depend on the processing

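No paired analysis was possible because the count columns carry library numbers that do not match the replicate numbers in the titles. Among complex events called by the deposited p, an adjusted p under 0.01 left 12 in CGG vs CTL, 1 in CGG_TRA vs CGG and 8 in CGG_TRA vs CGG_siTRA. An unadjusted p under 0.01 gave 57 in CGG vs CTL, 47 in GFP_TRA vs CTL, 23 in CGG_siTRA vs siTRA, 55 in CGG_TRA vs CGG and 52 in CGG_TRA vs CGG_siTRA. An adjusted p under 0.05 with an absolute Delta PSI of 0.1 or more left 6 in CGG vs CTL and 2 in GFP_TRA vs CTL. It left 0 in CGG_TRA vs CGG and 7 in CGG_TRA vs CGG_siTRA.

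Complex events with a changed bin numbered, in CGG vs CTL, GFP_TRA vs CTL, CGG_siTRA vs siTRA and GFP_TRA vs siTRA, 190, 208, 119 and 230 with limma, and 169, 128, 0 and 48 from only the libraries compared. In the first 2 comparisons the authors' deposited table gave 254 and 234. Leaving out 1 library gave 25 to 46, 30 to 50, 0 to 16 and 33 to 141. Of the 60 events in CGG vs CTL, 35 were among those of limma and 56 among those of the authors' deposited table, and the cause of the higher counts was not tested. Genes called in level were 420 in CGG vs CTL and 139 in GFP_TRA vs siTRA from only the libraries compared, and 29 with DESeq2 in CGG_siTRA vs siTRA. Leaving out 1 library gave 138 to 177 in CGG vs CTL, 0 to 51 in CGG_siTRA vs siTRA and 170 to 260 in GFP_TRA vs siTRA.

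Over 222 values for single bins, 2145 of 2244 alternatives left the value on its side of the threshold, 71 lost the call, 28 gained it, and 0 of the called values changed sign. These include values that were not called, so the 2145 is not the share of calls that held. With 1 library left out, losses differed between called values. They ran from 0 of 12 for the difference in event 1439_5 to 6 of 6 for the bin of event 326_4 in GFP_TRA vs CTL. Delta PSI came without replicate values or read depth, so its error in single samples could not be given.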
